A study of Mus musculus with 2 samples.

Results

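The long noncoding transcripts 4921539H07Rik, 1700007F19Rik and B230110G15Rik and the protein-coding gene Lmo3 are described here across the nucleus classes of the postnatal mouse hippocampus. They are 4 of the 33696 genes counted in the series. The members were chosen by their measured values: the 3 noncoding transcripts because they were lower in CA1 nuclei of the knockout library, and Lmo3 because it overlaps B230110G15Rik. Their CA1 values, also when split by cluster or sex, are therefore a description. The rule of choice did not use values of the other classes, the genes around the members or their sequences. The choice was made with earlier results of these data known, so the values of other classes cannot be taken as independent of it. The series compared hippocampi of mice at postnatal day 19 by sequencing RNA from single nuclei, with 1 library per genotype. The Control library came from mice of genotype Cicflox/flox, in which both copies of Cic carry sites for Cre recombinase and no Cre is present. The other library came from mice of genotype Emx1-Cre; Cicflox/flox, in which the Emx1 promoter drives Cre in the lineage of the dorsal telencephalon. That lineage gives rise to hippocampal excitatory neurons, astrocytes and part of the oligodendrocyte lineage, while inhibitory neurons and microglia arise elsewhere. Each library pooled tissue of 3 mice, 2 males and 1 female, so mice of a pool cannot be told apart except by sex.

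Cic encodes Capicua, a repressor with a high mobility group box that binds short octamers in DNA and silences its targets until signalling through the MAPK pathway releases it. Long noncoding transcripts are RNAs that encode no known protein, and many but not all of them are spliced and polyadenylated. Many are held in the nucleus, and many are made by only a few kinds of neuron. CA1 pyramidal neurons are the principal output neurons of the hippocampus proper and receive input from CA3. Lmo3 encodes a LIM-only protein, which has LIM domains but binds no DNA itself and acts by joining LDB1 and transcription factors in one complex.

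In the GENCODE M21 annotation, 4921539H07Rik (ENSMUSG00000104586) lies on the plus strand of chromosome 3 as a lincRNA with 2 transcripts of 2 exons each, 2985 and 1665 bases long after splicing. The gene 1700007F19Rik (ENSMUSG00000100666), a lincRNA of 6 exons and 1642 spliced bases, lies on the minus strand wholly inside it (100% of its length), and their exons share 214 bases on opposite strands. On chromosome 6, B230110G15Rik (ENSMUSG00000100166) is an antisense transcript of 4 exons and 772 spliced bases on the plus strand. It overlaps Lmo3 (ENSMUSG00000030226), on the minus strand, head to head over 1345 bases at their 5′ ends, with 0 exon bases in common. The files use another genome build (mm39, per the submitters’ processing notes), so no gene positions are given. Where the genes of a pair overlap, reads given the wrong strand would go to the partner gene. The chromosome 6 overlap is 0.614% of the length of Lmo3. The sources used here do not state how the counting treated strand.

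Promoter sequences from RefSeq were found for 2 of the 4 genes, 1700007F19Rik and Lmo3, each a window of 300 bases around the start of transcription on GRCm38.p6. They are shown because both loci have paired starts. The window of 1700007F19Rik (chr3:58163758-58164057, minus strand) holds its start and, on the other strand, the start of the 4921539H07Rik transcript of 1665 bases. Capitals at its left end mark the reverse complement of the first 126 bases of that transcript, and capitals at its right end mark the first exon of 1700007F19Rik, 46 bases. The starts point away from each other across 124 bases. The 8 capitals between them mark the octamer TCAATGAA.
1700007F19Rik window: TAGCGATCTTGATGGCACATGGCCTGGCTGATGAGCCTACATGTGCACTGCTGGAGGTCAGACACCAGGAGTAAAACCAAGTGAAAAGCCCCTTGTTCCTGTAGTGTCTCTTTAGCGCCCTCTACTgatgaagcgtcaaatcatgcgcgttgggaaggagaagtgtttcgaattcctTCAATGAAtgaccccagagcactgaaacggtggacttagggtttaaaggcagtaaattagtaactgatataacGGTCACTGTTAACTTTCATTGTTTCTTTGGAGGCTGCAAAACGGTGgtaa
The Lmo3 sequence is the 250 bases before the start in its RefSeq window (chr6:138581969-138582218, minus strand), and it lies in an intron of B230110G15Rik.
Lmo3 upstream: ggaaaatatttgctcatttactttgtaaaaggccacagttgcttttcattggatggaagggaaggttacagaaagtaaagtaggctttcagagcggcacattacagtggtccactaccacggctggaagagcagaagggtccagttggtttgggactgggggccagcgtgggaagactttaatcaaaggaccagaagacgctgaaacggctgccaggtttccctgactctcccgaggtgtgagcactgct
Both windows of 300 bases were searched on both strands for the octamers known to be bound by Capicua, TGAATGAA, TGAATGGA, TCAATGAA and TCAATGGA, whose letters vary at 2 of the 8 positions and whose matches can overlap. The window of 1700007F19Rik held 1 match, TCAATGAA at bases 178 to 185, 65 bases before its start, and that of Lmo3 held 0. Of the 32851 windows in the table, 1260 (3.84%) held at least 1 of the 4 octamers. A match is a run of letters and was not tested for binding.

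The Control library held 25907 barcodes and 314453640 UMIs (unique molecular identifiers, each marking 1 captured RNA molecule), and the knockout-labelled library held 23207 and 252995761. They share 175 barcode sequences. After filtering, 21866 and 20530 nuclei were used, with medians of 9789.5 and 8765.5 UMIs. Clustering was done without the 4 genes, and clusters were named by fixed markers, with the ending -like. CA1-like nuclei were clusters 4 and 7, with 8 and 6 of the 10 CA1 markers raised, and numbered 2693 in the Control and 2397 in the knockout-labelled library. The level of Cic was higher, not lower, in CA1-like nuclei of the knockout-labelled library, with 361 Control UMIs and 509 in the other library (log2 ratio 0.86, 95% interval 0.66 to 1.06), and CA3-like nuclei had 0.76 (0.49 to 1.02). Outside the Emx1 lineage the intervals spanned 0, with -0.04 (-0.33 to 0.25) in inhibitory-like and -0.05 (-0.54 to 0.43) in microglia-like nuclei. Gene counts do not show whether those transcripts hold the floxed exons, so directions are given for the library as labelled. With 1 library per genotype there is no replicate error and no test. Intervals cover counting error only and neither the spread between mice nor that between libraries.

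In CA1-like nuclei all 4 genes were lower in the knockout-labelled library. A gene was counted as lower by size when it was at least 2-fold lower with at least 50 UMIs and 10 CPM (UMIs per 1000000 UMIs of the class) in the higher library. All 4 members met this, where 52 of 8349 genes with enough UMIs did (0.623%), and among annotated long noncoding genes 8 of 516 did (1.55%). Since the members were chosen by this contrast, nothing is read from their count. Ranked by ratio among the 8349, 4921539H07Rik was lowest, 1700007F19Rik stood at 2, B230110G15Rik at 4 and Lmo3 at 38.

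The transcript 4921539H07Rik reached 25401 Control UMIs, or 475 CPM (469 to 481), and 1343 in the knockout-labelled library, or 32.3 CPM (30.6 to 34.1). The log2 ratio was -3.88 (-3.96 to -3.80). A low level remained: 21.9% of CA1-like nuclei of that library had at least 1 UMI (20.3% to 23.6%), against 69.7% in the Control (67.96% to 71.5%). Its opposite-strand partner 1700007F19Rik was at 1733 and 120 UMIs, or 32.4 CPM (30.9 to 34.0) and 2.89 CPM (2.39 to 3.45), a log2 ratio of -3.48 (-3.77 to -3.22). The share of nuclei with a UMI was 34.9% in the Control and 4.34% in the other library. Both transcripts of the chromosome 3 pair were thus lower, 14.7-fold (13.9 to 15.5) and 11.2-fold (9.32 to 13.6).

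B230110G15Rik reached 1511 Control UMIs, or 28.3 CPM (26.9 to 29.7), and 129 in the knockout-labelled library, or 3.11 CPM (2.59 to 3.69). Its log2 ratio was -3.18 (-3.46 to -2.93), and 24.2% and 3.42% of nuclei had a UMI. Lmo3, which it overlaps, had 11326 and 3867 UMIs, or 212 CPM (208 to 216) and 93.1 CPM (90.2 to 96.1). The log2 ratio of Lmo3 was -1.19 (-1.24 to -1.13), 2.28-fold lower, and 83.4% and 63.04% of nuclei had a UMI. B230110G15Rik was chosen for its low CA1 ratio and Lmo3 for its overlap, with earlier results known, so nothing is read from the gap between their ratios. Most nuclei of both libraries had an Lmo3 UMI.

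**Figure D1:**
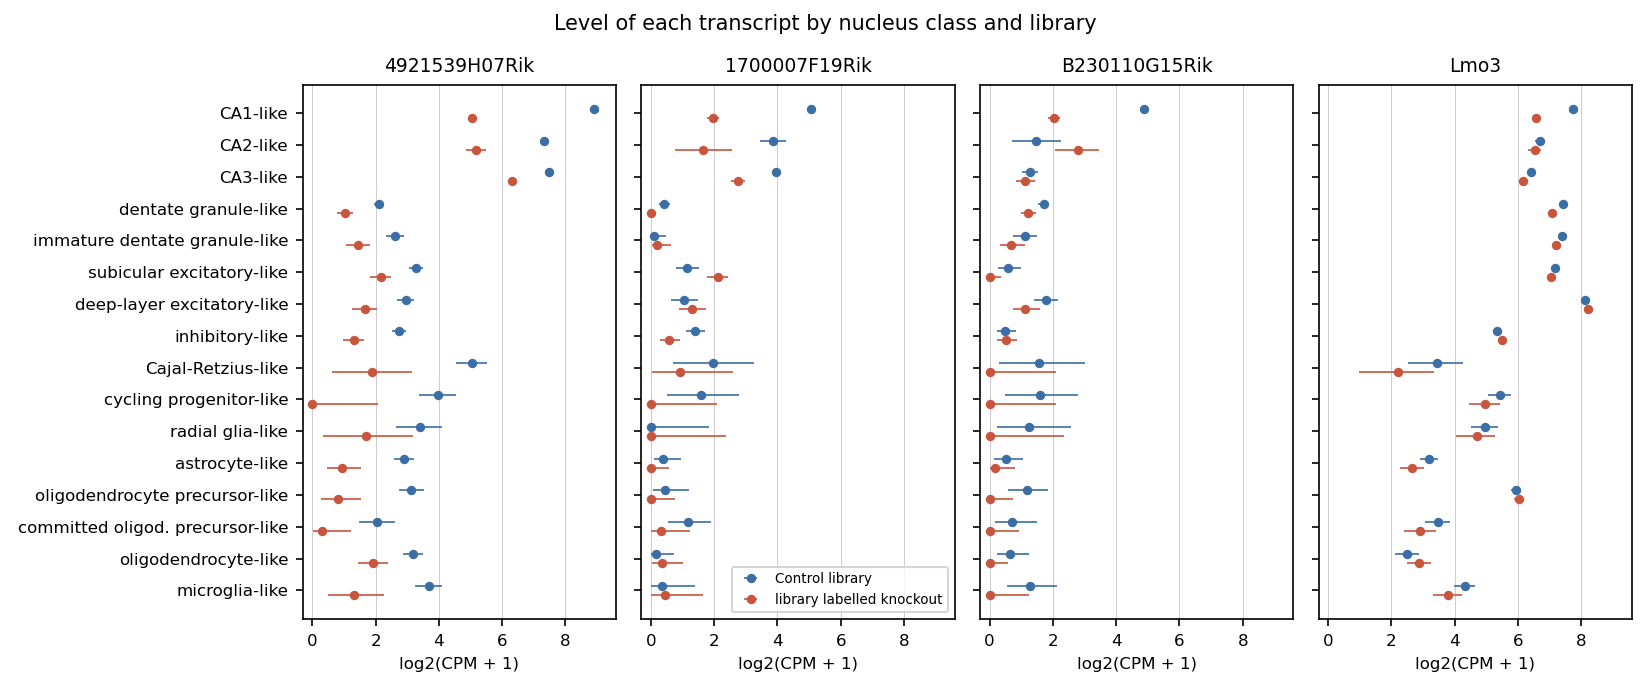
Level of each transcript, as log2(CPM + 1), by nucleus class (rows) and library (colours). Points are sums over a class in 1 library and bars 95% Poisson intervals for counting error; all 4 genes are lower in CA1-like nuclei of the knockout-labelled library, while the Lmo3 points of the 2 libraries lie closer together in CA2-like, CA3-like, dentate granule-like, subicular and deep-layer nuclei than in CA1-like nuclei.

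Free RNA was gauged from nuclei of other lineages. In microglia-like nuclei, a lineage unrelated to neurons that serves here as the background, 4921539H07Rik had 0.027 UMIs per nucleus in the Control and 0.00272 in the other library, at median depths of 2157 and 1719 UMIs against 18910 and 16642 in CA1-like nuclei. A 4921539H07Rik UMI was present in 2.57% and 0.136% of them. Taken as free RNA, that mean is 0.286% and 0.485% of its UMIs per CA1-like nucleus. For the 4 genes the highest such share was 1.43%, for Lmo3 in the knockout-labelled library. Oligodendrocyte-like nuclei of that library held more per nucleus, 0.024 UMIs of 4921539H07Rik and 0.0552 of Lmo3, beside 0.560 and 1.61 in CA1-like nuclei, so the share depends on the class taken as background. With each nucleus thinned to 2000 UMIs, 44.4% of 2692 Control CA1-like nuclei and 4.59% of 2397 in the knockout-labelled library had a 4921539H07Rik UMI. The microglia-like shares were 2.34% of 856 nuclei and 0 of 515, which allows up to 0.583%, after 662 and 958 were left out as too shallow.

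The CA1-like class was not uniform. Cluster 4 carried most of the noncoding transcripts in the Control, although none of the 4 genes entered the clustering. In it 4921539H07Rik stood at 756 CPM, 1700007F19Rik at 51.8 and B230110G15Rik at 38.8, which was 18.4, 15.3 and 15.5 times their level in all other Control nuclei. Among 7621 genes ranked by the ratio of CPM + 1 inside and outside the cluster, they were the first 3. The Control level in CA1 nuclei entered their choice, so nothing is read from these ranks. In cluster 4 of the knockout-labelled library 4921539H07Rik ranked 64 among 7970 genes. There 1700007F19Rik and B230110G15Rik, at 4.49 and 3.58 CPM, were too low to be ranked. In cluster 7 of the Control the same transcripts stood at 52.5, 3.19 and 12.3 CPM. For 4921539H07Rik and 1700007F19Rik this was below their level in all other nuclei together, 137 and 9.95 CPM, which includes cluster 4. All Control nuclei outside cluster 4, cluster 7 among them, were at 41.0 and 3.39 CPM, so 4921539H07Rik in cluster 7 was above that level. Cluster 7 was led by Dcn, an extracellular proteoglycan, which had 78.9 CPM there and 2.96 CPM in cluster 4.

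In the knockout-labelled library, 4921539H07Rik was at 53.9 CPM in cluster 4 and 7.86 CPM in cluster 7. Its log2 ratio was -3.81 (-3.89 to -3.72) in the former and -2.74 (-2.99 to -2.50) in the latter. For 1700007F19Rik the ratios were -3.52 (-3.84 to -3.24) and -1.54 (-2.35 to -0.84), the second from 68 and 21 UMIs. B230110G15Rik had -3.43 (-3.79 to -3.11) and -2.25 (-2.73 to -1.82), and Lmo3 -1.32 (-1.39 to -1.25) and -0.84 (-0.92 to -0.75). All 4 genes were lower in both clusters, and for each the counting intervals of the clusters did not overlap, with the larger change in cluster 4. Cluster 4 also held most Control UMIs behind the choice of the noncoding members, such as 24282 of 25401 for 4921539H07Rik. The comparison of the clusters is therefore a description and was not tested.

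Counted per nucleus, the difference in 4921539H07Rik was seen across cluster 4. Control nuclei had a median of 12 UMIs, and the middle 50% of them held 5 to 21. Only 7.45% had none and 58.9% had at least 10. In the knockout-labelled library the median was 0, 67.2% had none and 0.964% had at least 10. Those were 13 of 1348 nuclei, and the highest held 74 UMIs, within the Control range, whose maximum was 85. Cluster 7 had 69.6% of Control nuclei without a UMI and 31 of 988 with at least 10, against 92.1% without and 0 of 1049 with at least 10 in the other library.

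**Figure D2:**
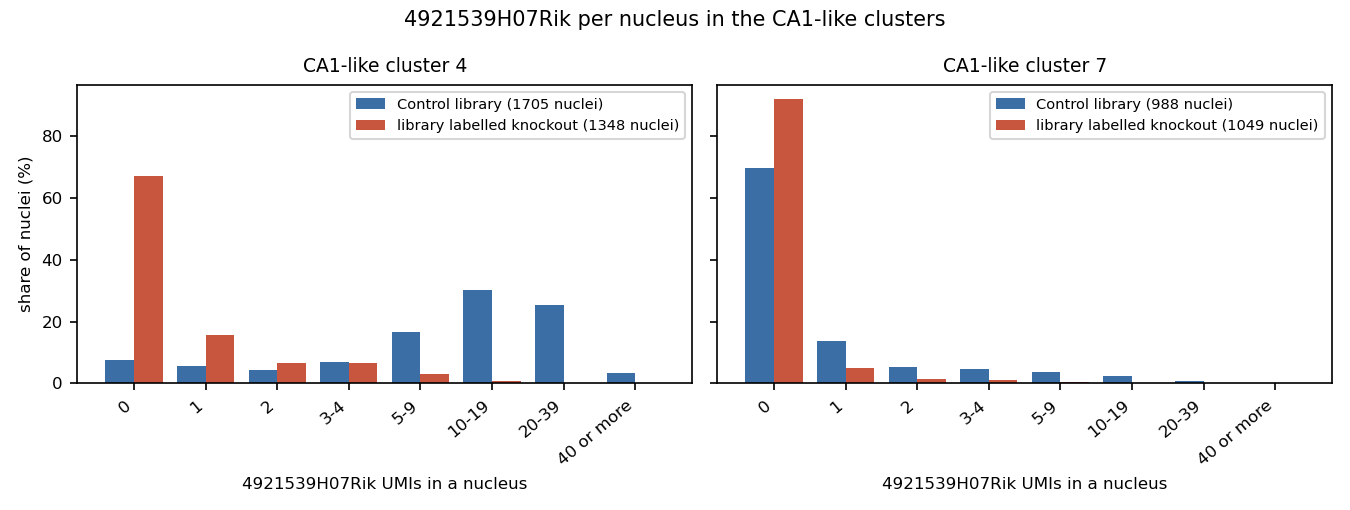
Share of nuclei (%) by the number of 4921539H07Rik UMIs in the nucleus, in the CA1-like clusters 4 (left) and 7 (right), for the Control library and the library labelled knockout. In cluster 4 most Control nuclei hold 5 UMIs or more, whereas 67.2% of nuclei of the knockout-labelled library hold none.

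Within Control CA1-like nuclei the members occurred together. A 1700007F19Rik UMI was present in 49.6% of the 1878 nuclei with 4921539H07Rik and in 0.982% of the 815 without it. For B230110G15Rik these shares were 31.8% and 6.75%, and for Lmo3 88.6% and 71.3%. Lmo3 was found in 97.1% of the 653 nuclei with B230110G15Rik and in 78.97% of the 2040 without. In the knockout-labelled library, 13.5% of the 525 nuclei with 4921539H07Rik also had 1700007F19Rik, against 1.76% of the 1872 without. These shares mix the 2 clusters and nuclei of different depth, so they are given as a description.

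Outside CA1 the chromosome 3 pair had a broader range than the label CA1 implies. In the Control, CA1-like nuclei held 75.6% of all 4921539H07Rik UMIs and CA3-like nuclei 15.7%. CA3-like nuclei, the pyramidal neurons that receive the mossy fibers, had 177 CPM (172 to 182), and the CA2-like nuclei between the fields had 160 CPM (147 to 174). Every other class of at least 100 nuclei in both libraries was at 32.3 CPM or less. CA3-like nuclei had 5263 Control UMIs and 1911 from the knockout-labelled library, or 177 and 77.9 CPM, a log2 ratio of -1.19 (-1.26 to -1.11). CA2-like nuclei held 552 and 84 UMIs, or 160 and 35.3 CPM, for a log2 ratio of -2.17 (-2.53 to -1.85). Between these classes, whose values the rule of choice did not use, the ratio of 4921539H07Rik was lower in CA2-like nuclei, with intervals that do not overlap. The difference between the classes was not tested.

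Its partner followed in CA3-like nuclei, where 1700007F19Rik had 434 and 141 UMIs (14.6 and 5.74 CPM), a log2 ratio of -1.34 (-1.63 to -1.07). In CA2-like nuclei its sums were 47 and 5 UMIs, with a ratio of -2.57 (-4.38 to -1.37), too few for the size rule. Of the 3 members with enough UMIs in CA3-like nuclei, 2 were lower by the size rule, where 0.378% of 8198 genes were. Of the 2 with enough in CA2-like nuclei, 1 was lower, where 1.12% of 5977 genes were. In the knockout-labelled library the highest 4921539H07Rik level among these classes was in CA3-like nuclei, at 77.9 CPM, above the 32.3 CPM of CA1-like nuclei. CA3-like nuclei held 45.6% of its UMIs in that library and CA1-like nuclei 32.1%.

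Smaller groups of nuclei varied. The 72 Control and 108 other mossy cell-like nuclei, excitatory neurons of the dentate hilus, had 227 and 158 UMIs of 4921539H07Rik, or 119 and 64.6 CPM, a log2 ratio of -0.88 (-1.18 to -0.58). Their 1700007F19Rik sums were 13 and 15 UMIs (-0.16, interval -1.32 to 1.04). Cluster 14, an unnamed cluster of 373 and 435 nuclei, had 352 and 229 UMIs, or 55.5 and 37.7 CPM (-0.56, interval -0.81 to -0.32). The unnamed cluster 21 had 117 and 126 UMIs, or 26.3 and 17.8 CPM (-0.57, interval -0.94 to -0.19). Its best marker set was CA1, with 3 of the 10 markers raised, but the mean marker ratio was too low for that name. The intervals of clusters 14 and 21 lay above that of CA3-like nuclei (-1.26 to -1.11), while the mossy cell-like interval overlapped it. Other small groups had far lower ratios: the unnamed cluster 29, of 85 and 85 nuclei, had 615 and 79 UMIs (-3.08, interval -3.45 to -2.75), and the unnamed cluster 24 had 100 and 1. Both clusters had unusual depths, beside library medians of 9789.5 and 8765.5 UMIs. The medians were 43004 and 46669 UMIs in cluster 29 and 1164.5 and 970 in cluster 24. What these barcodes hold was not tested. Endothelial-like nuclei had 26 and 0 UMIs and mural-like nuclei 13 and 0, but in each case 2 Control nuclei held all of them. Fibroblast-like nuclei had 15 and 26 UMIs (-0.12, interval -1.08 to 0.92).

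Subicular excitatory-like nuclei, of the field next to CA1, went the other way for 1 of the pair. There the sum of 1700007F19Rik was 19 UMIs for the Control and 42 for the knockout-labelled library (1.45, interval 0.66 to 2.34), while 4921539H07Rik had 138 and 44 (-1.31, interval -1.84 to -0.82). The latter direction depended on which nuclei were counted. Female nuclei had 8 and 18 UMIs of 4921539H07Rik (1.06, interval -0.17 to 2.52) and male nuclei 30 and 16 (-0.52, interval -1.51 to 0.39), so most of its Control UMIs lay in nuclei with no sex call. The levels of 1700007F19Rik were 1.19 and 3.30 CPM, under the minimum of the size rule, and its direction turned under 2 alternatives. With nuclei assigned one by one by marker score the ratio was -0.21, and with nuclei thinned to 2000 UMIs it was -1.08, from 3 and 1 UMIs. In inhibitory-like nuclei, outside the Emx1 lineage, 4921539H07Rik had 125 and 28 UMIs, or 5.67 and 1.47 CPM (-1.93, interval -2.59 to -1.35). Per nucleus that was 0.101 Control UMIs, against 0.027 in microglia-like nuclei, where the ratio was -2.81 from 41 and 4 UMIs. Nuclei of classes with such low counts can hold free RNA of CA1 neurons, and its part in these ratios was not tested.

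B230110G15Rik was the member with the largest share of its Control UMIs in CA1-like nuclei. They held 83.2% of them and CA3-like nuclei 2.31%. Among the other 15 classes of at least 100 nuclei its highest Control level was 2.46 CPM, in deep-layer excitatory-like nuclei, from 30 UMIs, with 14 in the other library (-1.01, interval -2.07 to -0.08). By sex that ratio was 0.66 in female nuclei, from 3 and 7 UMIs, and -1.49 in male nuclei, from 19 and 5. The unnamed cluster 29, of the high depth given above, stood higher in the Control, at 8.72 CPM from 35 UMIs, with 3 in the other library. The shallow unnamed cluster 24 was at 9.22 CPM from 4 UMIs. Dentate granule-like nuclei had 122 and 50 UMIs, or 2.27 and 1.33 CPM (-0.76, interval -1.28 to -0.29). There the sexes differed: female nuclei had 29 and 25 UMIs (0.23, interval -0.60 to 1.05) and male nuclei 66 and 15 (-1.66, interval -2.62 to -0.88), a difference that was not tested. CA3-like nuclei had 42 and 29 UMIs, and the interval of their ratio, -0.99 to 0.46, spanned 0. In CA2-like nuclei it had 6 and 14 UMIs (1.69, interval 0.29 to 3.43), the opposite direction from CA1-like nuclei, but nuclei assigned by marker score gave 96 and 21 UMIs and a ratio of -2.01.

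**Figure D3:**
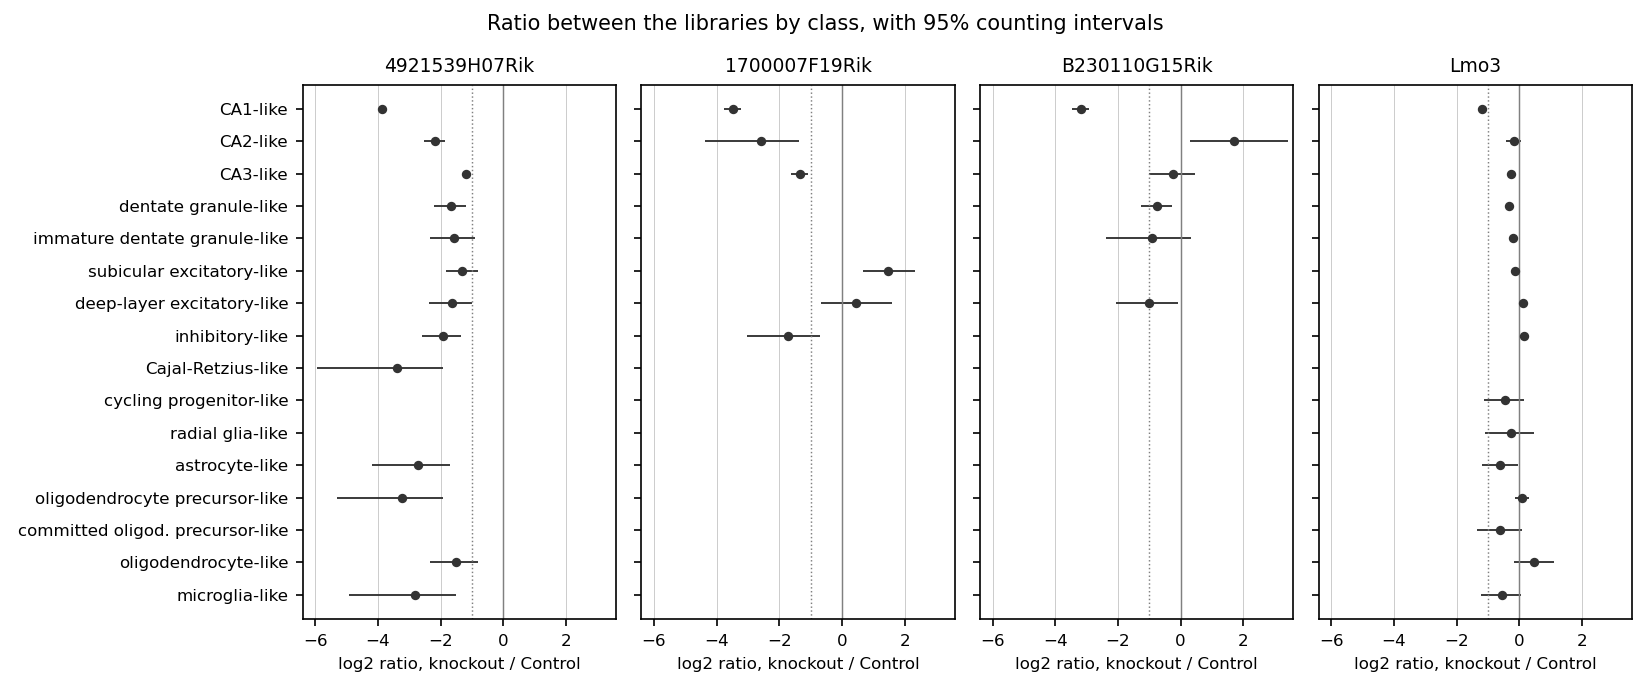
log2 ratio of the knockout-labelled library over the Control by class for each gene, with 95% counting intervals; the dotted line marks a 2-fold lower level, and classes with fewer than 20 UMIs in both libraries together or 0 in 1 library are left blank. The ratios of 4921539H07Rik lie below 0 in the classes shown, whereas the lowest and highest ratios shown for Lmo3 outside CA1-like nuclei are -0.61 and 0.46.

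Lmo3 UMIs were found in each of the 16 classes, including microglia-like nuclei, the background above, with 0.0435 per Control nucleus. Astrocyte-like and oligodendrocyte-like nuclei held less, 0.0382 and 0.0374, and Cajal-Retzius-like nuclei 0.0568. Whether these classes make Lmo3 was not tested. By Control level of Lmo3, deep-layer excitatory-like nuclei were highest at 276 CPM (267 to 286). CA1-like nuclei were at 212, dentate granule-like at 169 and immature dentate granule-like at 168. The intervals of these dentate classes overlapped. Subicular excitatory-like (143), CA2-like (103), CA3-like (84.1) and oligodendrocyte precursor-like nuclei (60.2) followed, and the interval of each lay below that of the class before it. In the knockout-labelled library CA1-like nuclei, at 93.1 CPM, had moved below both dentate classes (146 and 135) and the subicular one (131), and their interval overlapped that of CA2-like nuclei (90.8).

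For Lmo3 the log2 ratio in CA3-like nuclei was -0.27 (-0.36 to -0.18). Dentate granule-like nuclei had -0.32 (-0.37 to -0.27), and subicular excitatory-like nuclei had -0.12 (-0.21 to -0.03). In CA2-like nuclei it was -0.18 (-0.43 to 0.07). Dentate granule-like nuclei lay mostly in cluster 3 in the Control (3506 nuclei, 174 in the other library) and in cluster 1 in the knockout-labelled library (3160 nuclei, 862 in the Control). Deep-layer excitatory-like nuclei had 0.11 (0.04 to 0.17), from 3365 and 3474 UMIs, and inhibitory-like nuclei 0.16 (0.02 to 0.30). Of the 15 classes other than CA1-like, 10 had enough Lmo3 UMIs for the size rule and 0 of these passed it. In those 10 classes 0.0213% to 1.82% of all genes with enough UMIs were lower and 0.0796% to 2.34% higher. Nothing is therefore read from this count of 0. Cajal-Retzius-like nuclei, among the 5 without enough, had 10 and 4 UMIs (-1.35, interval -3.58 to 0.34). Scaling by median-of-ratios factors shifts all ratios of a class together, by -0.11 in CA1-like nuclei. It leaves the positive values at 0.05 in deep-layer excitatory-like and 0.11 in inhibitory-like nuclei. The shifts there, -0.06 and -0.05, are larger than the lower ends of those intervals, so both then span 0. In CA2-like nuclei the shift of -0.11 brings the upper end of the interval below 0. With called doublets kept, the inhibitory-like ratio was -0.09.

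Nuclei could be called female or male by Xist and Y-linked genes, and female nuclei came from 1 mouse of each pool. In cluster 4, 4921539H07Rik had 742 and 42.6 CPM in female nuclei of the 2 libraries, a log2 ratio of -4.12 (-4.30 to -3.95). In male nuclei it had 740 and 60.0 CPM, a ratio of -3.62 (-3.74 to -3.51). The Control levels of the sexes were alike in cluster 4, and the level left in the knockout-labelled library was lower in its female nuclei there. In cluster 7 the order was reversed, with 8.60 CPM (6.34 to 11.4) left in female and 5.89 CPM (4.51 to 7.55) in male nuclei. The ratios there were -2.32 (-2.81 to -1.89) and -3.04 (-3.46 to -2.67). For both the level and the ratio the intervals of the sexes overlapped in cluster 7. For B230110G15Rik the cluster 4 ratios were -2.92 (-3.47 to -2.44) in female and -3.53 (-4.07 to -3.07) in male nuclei. Lmo3 had -1.45 (-1.57 to -1.32) and -1.26 (-1.36 to -1.16). These nuclei are the ones whose contrast chose the noncoding members, so the split describes those sums by sex and is no separate evidence of direction. All 4 genes were lower in both sexes in both clusters, with 1 interval that reached above 0, that of 1700007F19Rik in female nuclei of cluster 7 (-1.28, interval -3.48 to 0.33, from 12 and 4 UMIs).

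**Figure D4:**
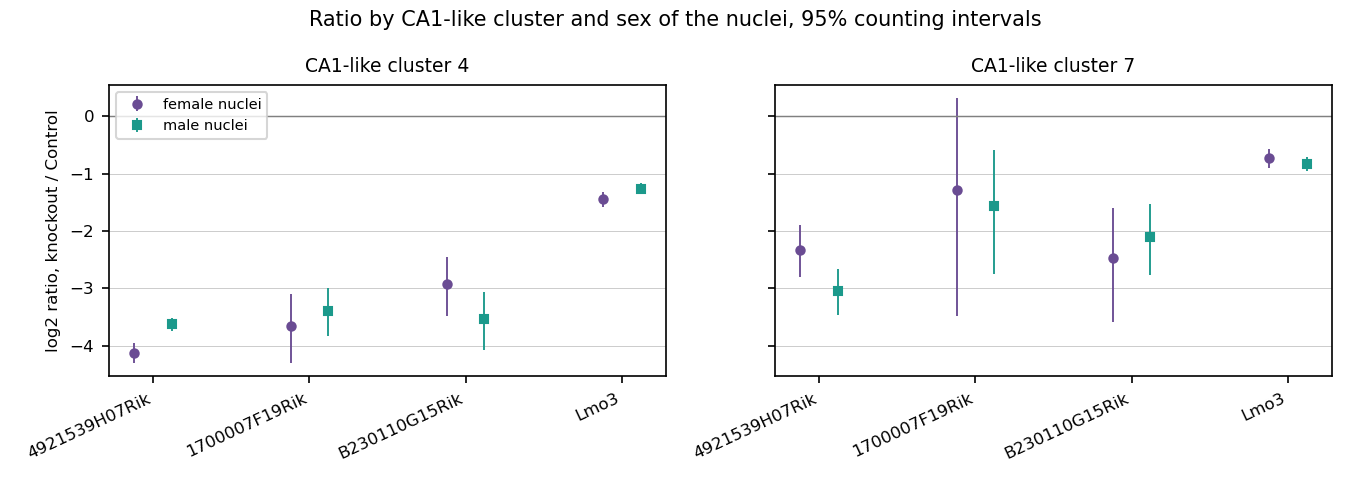
log2 ratio of the knockout-labelled library over the Control for the 4 genes in CA1-like clusters 4 and 7, split by the sex of the nuclei, with 95% counting intervals. The female points rest on 1 animal of each pool and the male points on 2; the points of both sexes lie below 0 for each gene.

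Genes around the chromosome 3 pair did not share its change. Within 500 kb, 9 other annotated genes had at least 50 UMIs in CA1-like nuclei, and their log2 ratios ran from -0.38 to 0.21. Commd2, Ankub1, Serp1 and Erich6 were under 10 CPM in both libraries and could not meet the size rule; 0 of the others met it, where 0.623% of all genes were lower, and nothing is read from that count. The nearest in ratio to the pair was Erich6, with 217 and 129 UMIs (-0.38, interval -0.71 to -0.07). Rnf13, a ubiquitin ligase, had -0.18, Pfn2, the neuronal profilin that binds actin, 0.09, Tsc22d2 0.07 and Eif2a, a translation factor, -0.12. Serp1 (0.07), Commd2 (0.14), Ankub1 (-0.15) and Selenot (0.21), which encodes a selenoprotein of the endoplasmic reticulum, made up the rest.

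On chromosome 6 the 3 other annotated genes with enough UMIs were lower as well, though all were under 10 CPM and so outside the size rule. Gm30332, a noncoding transcript on the strand opposite to Lmo3 and inside it, had 197 and 30 UMIs, or 3.69 and 0.722 CPM (-2.33, interval -2.96 to -1.79). A830011K09Rik, also antisense inside Lmo3, had 141 and 73 UMIs (-0.58, interval -1.01 to -0.17). Igbp1b had 65 and 16 UMIs (-1.63, interval -2.55 to -0.85). In CA3-like nuclei Gm30332 had -1.25 and the others -0.16 (Igbp1b) and 0.15 (A830011K09Rik). Gm30332 thus had a CA1 ratio between those of B230110G15Rik and Lmo3.

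**Figure D5:**
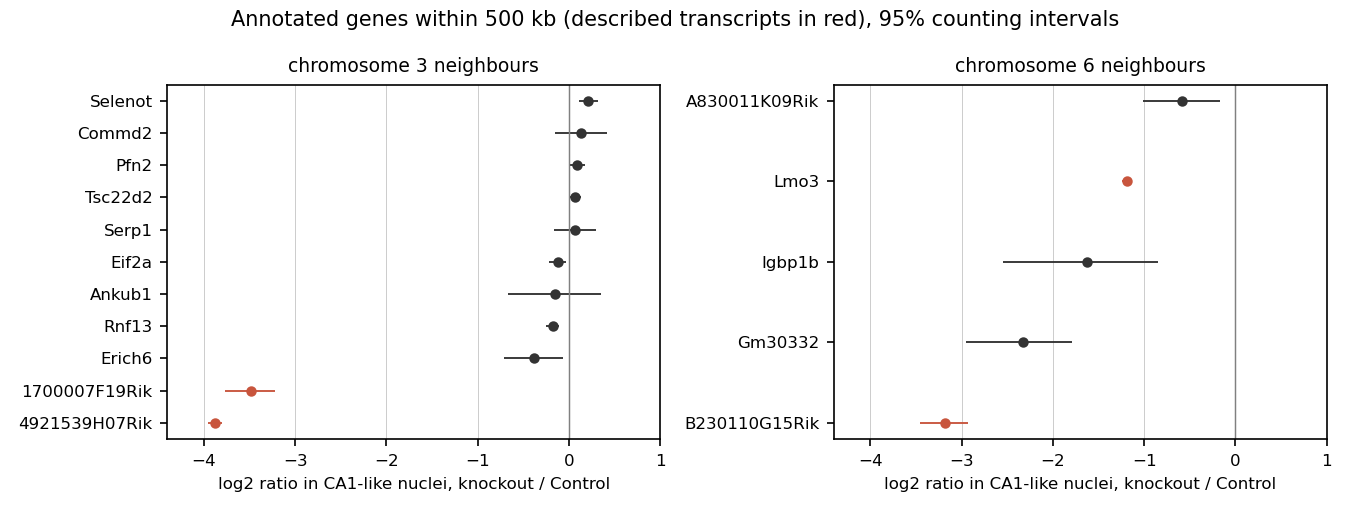
log2 ratio in CA1-like nuclei of annotated genes within 500 kb of the members, with 95% counting intervals (members in red). Of genes with at least 50 UMIs, the chromosome 3 neighbours lie between -0.38 and 0.21 and the chromosome 6 neighbours below 0.

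Over 32 sums (16 classes in 2 libraries), the gene whose log2(CPM + 1) followed 4921539H07Rik most closely among 13020 was 1700007F19Rik, with a Pearson r of 0.875. Cpne7, a calcium-dependent phospholipid-binding copine, had 0.812, Tbata 0.791, Ptgs2, the inducible cyclooxygenase, 0.774, and the noncoding 2310002F09Rik 0.757. Their CA1-like log2 ratios differed: Cpne7 had -0.07, Tbata -0.34, Ptgs2 -1.12 and 2310002F09Rik -1.98, from 4832 and 951 UMIs. For 1700007F19Rik the list also held Gm10754 (r 0.808, CA1-like ratio -0.54). For B230110G15Rik the closest were 4921539H07Rik (0.746), Gm32793 (0.678), Gm30275 (0.673), Runx2, a transcription factor (0.671), and Chrd, a BMP antagonist (0.656). Gm32793 and Gm30275 were lower in CA1-like nuclei, with -1.54 and -1.52, and Runx2 was at 0.19. The points share 2 libraries and class depths, and 1 class, CA1-like, lies far from the rest, so these are descriptions of a pattern. The 32 sums also include the CA1-like sums of both libraries, whose contrast chose the noncoding members. Nothing is therefore read from the members' correlations with each other or from the CA1-like ratios of the genes that followed them.

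Of a list of 19 genes of the LIM-domain cofactor network, 11 had enough UMIs in CA1-like nuclei, with 0 higher and 0 lower by the size rule and a median log2 ratio of 0.06, beside 0.10 over all 8349 genes. Ldb1, the cofactor that LMO proteins bind, had 0.13 (-0.02 to 0.28), Ldb2 0.36 and the related Lmo4 -0.25. Lhx2, a LIM-homeodomain factor, had -0.80 (-1.01 to -0.59), from 605 and 270 UMIs. Of all 8349 genes, 0.623% were lower and 2.71% higher by the size rule, so nothing is read from the count of 0 in so short a list.

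Of 19 listed long noncoding transcripts of neurons, 14 had enough UMIs, 0 passed the size rule, and the median log2 ratio was 0.09. With 0.623% of all genes lower and 2.71% higher, so small a list would hold few or none, and nothing is read from this count or from that of the next list. Meg3, an imprinted transcript, had 0.58, Miat 0.04, Malat1 -0.44 and Pantr1 -0.68. Of 10 CA1 identity genes 8 had enough UMIs. Among these 0 were higher and 1, Wfs1, was lower (-1.75, interval -1.97 to -1.54), with a median of -0.01. The 10 genes are also the markers that named the CA1-like clusters, so their values there are not independent of the class. Summed, the 10 had 961 CPM in the Control and 787 in the other library, a log2 ratio of -0.29. Mpped1 had 0.50, Pou3f1 -0.04 and Man1a -0.76. Markers of other classes also differed within CA1-like nuclei. By ratio, the largest rises among the 23 marker sets were for Cajal-Retzius, subicular and immature dentate granule markers. The 8 Cajal-Retzius markers summed to 10.6 CPM in the Control and 33.6 in the other library, and the 6 subicular markers to 154 and 338. The 8 immature dentate granule markers summed to 66.0 and 124 CPM, and none of these markers was at 0 UMIs. The largest fall was that of the ependymal or choroid markers, from 10.4 to 7.20 CPM. The part of these markers in the result was not tested.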

How the data were processed

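RNA of nuclei from 2 pooled hippocampal libraries was measured with 10x 3′ chemistry. The authors deposited raw UMI counts per gene and barcode, made with Cell Ranger 8.0.1 against mm39, per the submitters' processing notes; how strand or introns were counted is not given in the sources used here. The members and gene lists were chosen with earlier results of these data known.

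Nuclei with at least 500 genes and at most 5% mitochondrial UMIs were kept, and called doublets (3194 and 2513, with an expected rate of 0.1) were left out. Nuclei were clustered with Scanpy 1.11.5 and leidenalg 0.10.2 (3000 variable genes, 30 components, 15 neighbours, resolution 1) without the members, sex-linked or mitochondrial genes. Of 39 clusters, 5 stayed unnamed (4.01% and 5.09% of nuclei). Other tools were Python 3.11.15, NumPy 2.4.6, SciPy 1.17.1, pandas 2.3.3 and scikit-learn 1.9.0.

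Counts were summed per library and class, for the 16 classes with at least 100 nuclei in both libraries. A log2 ratio is the knockout-labelled library over the Control, scaled by the class totals, after 0.5 UMI was added to both sums. Intervals are exact at 95%: Poisson for a level, conditional binomial for a ratio and Clopper-Pearson for a share. A share of 0 is given with the limit that 3 counts set. Only the size rule and the ratios with their intervals were tried on simulated Poisson counts, drawn from the Control CA1-like sum. Filtering, doublet calling, clustering and naming were not simulated. Of the gene identifiers, 31961 of 33696 (94.85%) were matched to GENCODE M21, and positions there are on another build than the files.

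Genes were named by a rule: the members, annotated genes within 500 kb with at least 50 UMIs, the 5 genes most correlated with each noncoding member, and from each list those past the size rule and up to 4 others. Dcn was named outside it, after its values were seen. Alternatives changed the scaling, sex, doublets, depth, filters, free RNA, the clustering and the size rule.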

Additional observations from a re-analysis of the deposited data

Results flagged for a closer look

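The ratios below had the opposite sign from CA1-like nuclei, or opposite signs in the sexes, and none of these differences was tested. B230110G15Rik had a log2 ratio of 1.69 in CA2-like nuclei, from 6 and 14 UMIs. In subicular excitatory-like nuclei 1700007F19Rik had 1.45, from 19 and 42 UMIs. Both of these ratios fell below 0 under some alternatives, to as low as -2.01 for B230110G15Rik and -1.08 for 1700007F19Rik. Lmo3 had 0.11 in deep-layer excitatory-like and 0.16 in inhibitory-like nuclei, with intervals that span 0 under median-of-ratios scaling. In dentate granule-like nuclei B230110G15Rik had 0.23 in female and -1.66 in male nuclei, and in subicular excitatory-like nuclei 4921539H07Rik had 1.06 and -0.52. In cycling progenitor-like nuclei, Lmo3 had 1.57 in female nuclei, from 6 and 13 UMIs, and -1.3 in male nuclei, from 28 and 8 UMIs.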

How the results depend on the processing

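In CA1-like nuclei all 44 values of the 4 genes under the alternatives were negative and at least 2-fold lower; 31 lay within the counting interval of the reported ratio and 13 outside it. For 4921539H07Rik the log2 ratio was -3.98 with median-of-ratios and -3.99 with TMM factors, -4.07 in female and -3.77 in male nuclei, -4.03 with nuclei thinned to 2000 UMIs and -3.75 with nuclei assigned by marker score. For B230110G15Rik it was -2.91 in female and -2.89 in thinned nuclei. For Lmo3 it was -1.29 and -1.30 under the same 2 scalings, and -1.25 in female and -1.31 in thinned nuclei. With cluster 21, the unnamed cluster nearest CA1, added, the Lmo3 ratio was -1.27. By the size rule 226 genes were higher and 52 lower in CA1-like nuclei of the knockout-labelled library. With only female CA1-like nuclei counted, 343 were higher in that library. With at least 20 UMIs and no minimum CPM, 786 were higher and 275 lower. Why these values moved was not tested. In the other classes, 559 of 624 values stayed within the interval, many of these intervals being wide. Of those past the size rule 0 changed sign, but these were only 4921539H07Rik in CA2-like and CA3-like and 1700007F19Rik in CA3-like nuclei. Other ratios did change sign. That of 4921539H07Rik ran from -1.94 to 1.48 in immature dentate granule-like nuclei, and that of Lmo3 from -0.52 to 0.2 in CA2-like nuclei. Summed as 1 locus, the chromosome 3 pair had -3.85 and the chromosome 6 pair -1.32. No replicate could be left out and no paired analysis was possible because each genotype has 1 library, so differences between mice, pools and library preparation cannot be told apart from genotype. Sums under about 50 UMIs have wide intervals.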
